A study of Homo sapiens with 8 samples.

Results

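Hedgehog pathway genes were examined in Rh41 cells, an established human line of alveolar rhabdomyosarcoma that carries the PAX3-FOXO1 fusion. The 10 genes were GLI1, GLI2, GLI3, PTCH1, SMO, SUFU, HHIP, GAS1, BOC and CDON, taken by symbol from the 60234 genes of the deposited table, and each symbol had 1 row. The study compared 4 control libraries with 4 libraries in which G9a was knocked down. G9a, encoded by EHMT2, methylates lysine 9 of histone H3. The knockdown is called siG9a in the sample labels and shG9a in the series title, and the treatment of the control cells is not given. The replicates are called biological but no culture or passage is named, so p-values measure only the spread between these libraries. All 8 libraries came from this 1 line with no other treatment named.

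Hedgehog ligands bind PTCH1, which otherwise holds back the membrane protein SMO. GAS1, BOC and CDON are co-receptors that help the ligand to bind. Active SMO, working in the primary cilium, frees the GLI transcription factors from SUFU. GLI2 and GLI3 act first, with GLI3 serving mainly as a repressor, while GLI1 is both an activator and a target. PTCH1 and HHIP, a membrane-anchored protein that traps ligand, are also GLI targets and dampen the signal. In muscle development Hedgehog signals from the notochord and neural tube take part in starting the myogenic programme, and pathway activity has been described in rhabdomyosarcoma.

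HHIP was the Hedgehog gene that fell with G9a knockdown when libraries were compared by replicate number, and it did not pass the test by group alone. Its mean was 19.5 ± 10.1 CPM in the control libraries and 4.30 ± 2.02 CPM in the siG9a libraries (SD, n = 4 in both). CPM are a gene's reads scaled to the total assigned to genes in that library. No other member passed the test in any of the 32 settings tried (30 for BOC). For GLI2, PTCH1 and BOC, DESeq2 with replicate number as a block gave no adjusted p. Their ranges below leave that setting out. GLI1, a usual readout of pathway output, averaged 14.1 ± 4.73 CPM over controls against 15.1 ± 6.69 CPM under siG9a (SD, n = 4 in both). Of the 10 members, 1 (HHIP) was called by limma at an adjusted p under 0.05 when replicate number entered as a block (the blocked fit), where 11.4% of the 15092 genes tested were called. The members were therefore called about as often as genes in general. Without the block limma called 0 of 10 members and 0% of all genes, with 1 member and 12.5% of genes at an unadjusted p under 0.05. The fitted log2 change, on log2(CPM + 1), was below 0 for 6 members and above 0 for 4, with a median of −0.23, and the median over all genes tested was 0.015.

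The libraries held 1458825 to 1938665 reads assigned to genes, so 1 CPM was fewer than 2 reads. The symbol EHMT2 had 7 rows in the deposited table, of which the row with the highest mean was used. EHMT2 measured 57.6 to 88.3 CPM in control and 19.6 to 58.5 CPM in siG9a, and the groups overlapped. It was lower in 4 of 4 pairs (a pair being the control and siG9a libraries with the same number), with a limma adjusted p of 0.000472 in the blocked fit and 0.191 in the fit by group alone (0.000308 to 0.463 over all settings). Muscle lineage markers were present, with MYOD1 at 817 to 864 CPM in 3 control libraries, although neither MYF5 nor MYF6 passed 3 reads in any library. Both replicate 3 libraries stood apart. MYOD1 was at 95.3 CPM in control replicate 3 and 128 CPM in siG9a replicate 3. The summed level of 8 neuronal markers was 9609 and 8939 CPM there, nearly all of it from NEFM and NEFL. Both replicate 1 libraries lay at the other end for these markers, at 198 CPM in control and 232 CPM in siG9a. Replicates 2 and 4 lay between, at 1831 to 2956 CPM. Where leaving out the replicate 3 libraries moved a member's value by more than 1.5 times, that value is given beside it.

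HHIP (ENSG00000164161, chromosome 4) was measured at 32.2, 22.5, 9.22 and 14.02 CPM in control replicates 1 to 4. The corresponding read counts were 47, 37, 15 and 27. In siG9a it measured 6.71, 3.03, 2.28 and 5.16 CPM, from 13, 5, 4 and 9 reads. Every siG9a library lay below every control library. Such a separation, in either direction, was found in 1 of 10 members and in 7.32% of the genes tested, 3.45% with siG9a lower. The narrowest gap was between control replicate 3, at 9.22 CPM (95% Wilson interval 5.59 to 15.2), and siG9a replicate 1, at 6.71 CPM (3.92 to 11.5), whose intervals overlapped. These intervals cover counting error only.

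Compared with the control library of the same number, HHIP stood at 20.8%, 13.5%, 24.7% and 36.8% in pairs 1 to 4. The fitted log2 change was −1.89 ± 0.33 (SE; limma adjusted p 0.000469) in the blocked fit. By group alone the same change had an SE of 0.44 and limma gave an adjusted p of 0.122. For the 8 values the two-sided exact permutation p was 0.0286, the smallest that 4 against 4 libraries can give. Groups without overlap always give this value, so it restates the separation above and adds no support. It was unadjusted, set the pairs aside and was computed for HHIP alone. Among the 984 genes called lower with the block (6.52% of those tested), 57 had a log2 change at least as large as that of HHIP, itself included.

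The call of HHIP depended on how the spread was estimated. With the block it was called in 12 of 13 settings, with adjusted p-values from 0.000145 to 0.0570. The exception was limma without a mean-variance trend, which called 0 of all 15092 genes (3274 at an unadjusted p under 0.05), whereas the blocked edgeR fit called 1711. DESeq2 with the block gave HHIP an adjusted p of 0.000563 and called 10.2% of the genes it gave an adjusted p. Without the block it was called in 3 of 19 settings, with adjusted p-values from 0.00757 to 0.412. These 3 were DESeq2 (adjusted p 0.00757) and limma without control replicate 3 (0.0239) or without both replicate 3 libraries (0.0161). DESeq2 called 2.28% of the genes it gave an adjusted p, and limma called 1.99% and 2.77% of genes in these fits. The log2 change without both replicate 3 libraries was −1.98, so the fall of HHIP was as large without them. Left out in the blocked fit, they gave a limma adjusted p of 0.00155, where 7.87% of genes were called.

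Other signals moved with HHIP. The summed level of 10 muscle markers was 315 to 2108 CPM in control and 257 to 1312 CPM in siG9a, lower in 4 of 4 pairs. Of the 8 muscle markers tested, 4 (DES, CDH15, CHRNA1 and TNNT2) were called lower with the block and 0 higher, where 6.52% of all genes were called lower. The fibroblast and epithelial lists each had 1 marker called lower with the block and 0 higher, of 4 tested in each, and the neuronal list had 0 called. The summed level of 8 fibroblast markers was 118 to 406.5 CPM in control and 52.0 to 320 CPM in siG9a, with LUM, DCN, THY1 and POSTN at or under 3 reads in every library. That of 6 epithelial markers was 10.3 to 76.2 and 24.1 to 44.0 CPM, with EPCAM and CLDN4 at or under 3 reads in every library. That of 8 neuronal markers was 198 to 9609 and 232 to 8939 CPM, with NEFH and ELAVL4 at or under 3 reads in every library. The part of these markers in the fall of HHIP was not tested, and in such bulk samples fewer cells that express a gene and less RNA per cell cannot be told apart.

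**Figure D1:**
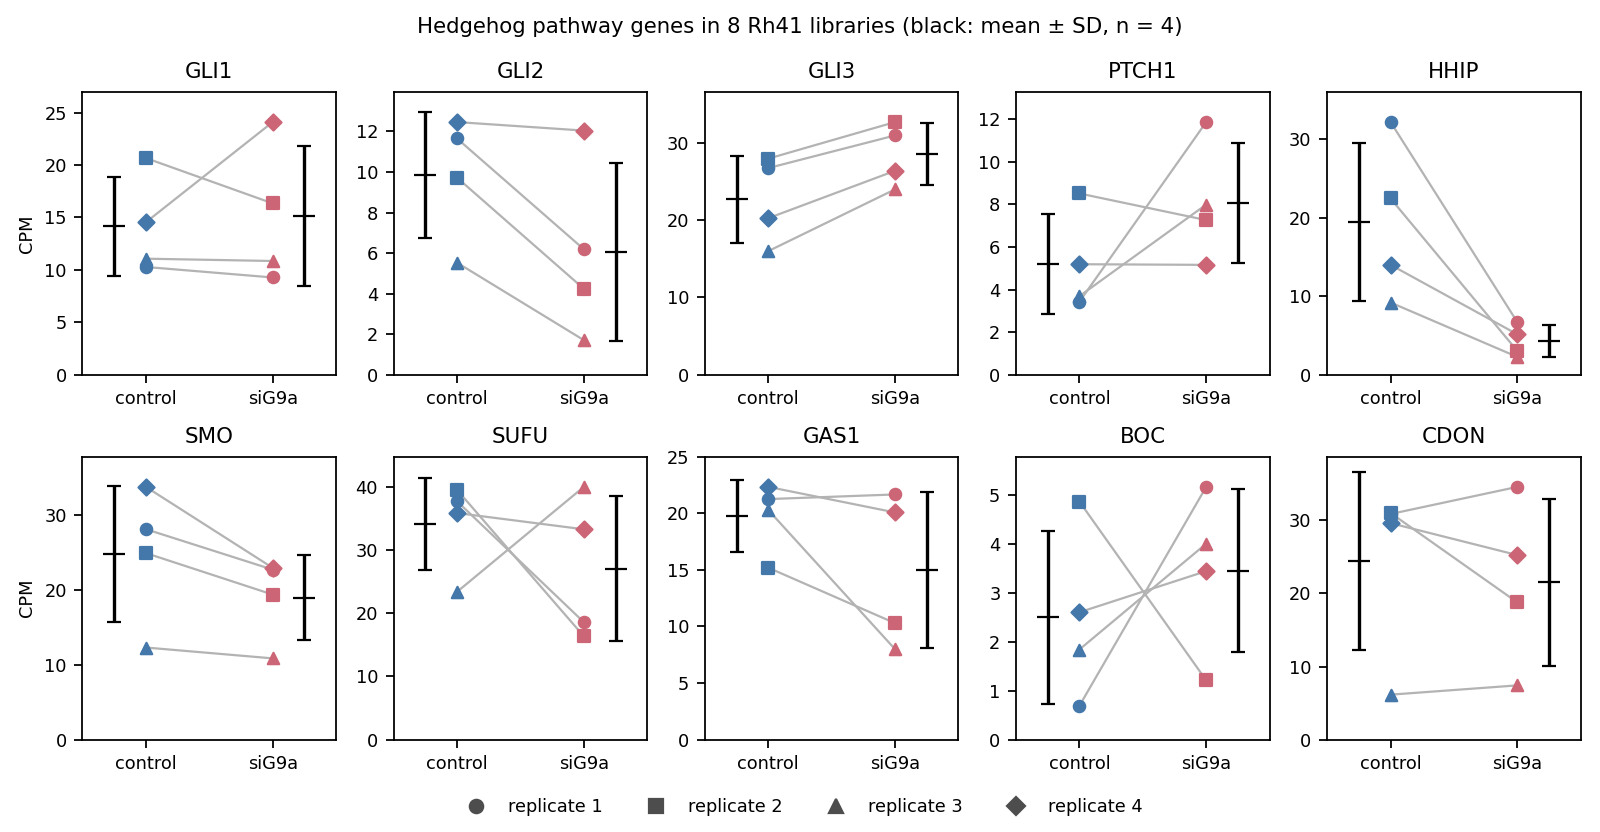
CPM (reads scaled to the library total, vertical axis, starting at 0) of each Hedgehog gene in 4 control (blue) and 4 siG9a (red) libraries, with grey lines joining libraries of the same replicate number and black bars for mean ± SD. HHIP is the only gene of the 10 whose groups do not overlap, at 9.22 to 32.2 CPM in control and 2.28 to 6.71 CPM in siG9a.

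The HHIP promoter is shown because HHIP was the member that changed. RefSeq (GRCh38.p14) places the window of 250 bases before to 50 bases after its start at chr4:144645906-144646205 on the plus strand. Capitals mark CpG pairs, the sites at which DNA can be methylated, and methylation was not measured here.

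HHIP promoter: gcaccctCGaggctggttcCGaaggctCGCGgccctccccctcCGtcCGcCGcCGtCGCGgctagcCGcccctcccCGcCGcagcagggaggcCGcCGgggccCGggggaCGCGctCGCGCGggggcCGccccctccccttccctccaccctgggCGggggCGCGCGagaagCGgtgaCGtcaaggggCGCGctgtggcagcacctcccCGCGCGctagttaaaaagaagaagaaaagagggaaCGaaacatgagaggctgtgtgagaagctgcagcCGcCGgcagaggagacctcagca

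The window holds 36 CpG pairs, where the median of 35116 RefSeq promoter windows of the same length was 14 and the 90th percentile 37. Windows of members that were not called held from 4 (CDON) to 36 (BOC), so this count is not particular to HHIP. The letters GACCACCCA, the consensus bound by GLI proteins, were not found in the HHIP window on either strand. Nor was the shorter CCACCCA that lies within them. HHIP-AS1, which overlaps HHIP on the opposite strand, had 1, 4, 0 and 3 reads in control replicates 1 to 4 and 7, 3, 2 and 1 reads in siG9a. These counts are too low to compare. GENCODE release 29 also places AC098588.1 and AC098588.2 over the 3′ end of HHIP on the opposite strand, and these were not analysed here. HHIP values are therefore uncertain where strand was not used, and the use of strand in the counting is not given in the sources used here.

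PTCH1 (chromosome 9), the ligand receptor and the other feedback inhibitor among the members, did not follow HHIP. It was measured at 3.43, 8.51, 3.69 and 5.19 CPM in control replicates 1 to 4 and at 11.9, 7.26, 7.99 and 5.16 CPM in siG9a, from 5 to 23 reads per library. The siG9a values overlapped the control values, and PTCH1 was higher in 2 pairs and lower in 2. Controls averaged 5.21 ± 2.34 CPM and siG9a libraries 8.07 ± 2.80 CPM (SD, n = 4 in both). Its fitted log2 change was 0.57 ± 0.38 (SE), with a 95% interval of −0.21 to 1.34 and limma adjusted p 0.372 in the blocked fit (0.293 to 0.798 over all settings). The change was 0.24 without pair 1, where siG9a stood at 346% of control, and 0.38 without siG9a replicate 1 alone. An antisense gene that overlaps PTCH1, AL161729.1, had 1 to 2 reads in control libraries and 3 to 11 in siG9a libraries.

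Of the members, 8 had an entry in the RefSeq promoter table, GLI1 and GLI3 being the others. Only PTCH1 held GACCACCCA, in 1 of its 5 start windows, and 0.236% of all 35116 windows held it. The shorter CCACCCA was found in 2 members, PTCH1 and GLI2, and in 9.19% of all windows. Counts of members and shares of windows are unlike measures, as a member with several windows has more chances of a match. The PTCH1 window with the match lies at chr9:95509217-95509516 on the minus strand (RefSeq, GRCh38.p14). It is printed because PTCH1 is the member with this letter string, here as its reverse complement TGGGTGGTC in capitals, which begins 172 bases before the start.

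PTCH1 promoter: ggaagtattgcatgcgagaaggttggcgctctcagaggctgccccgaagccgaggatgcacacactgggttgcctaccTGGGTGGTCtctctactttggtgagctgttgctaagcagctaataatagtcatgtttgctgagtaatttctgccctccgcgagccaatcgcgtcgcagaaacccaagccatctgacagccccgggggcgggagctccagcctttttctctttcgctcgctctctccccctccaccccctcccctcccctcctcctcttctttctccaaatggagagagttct

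GLI1 (chromosome 12), the third feedback target, showed no common direction. Control replicates 1 to 4 had 10.3, 20.7, 11.1 and 14.5 CPM, and siG9a replicates had 9.28, 16.3, 10.9 and 24.1 CPM. It was lower in 3 pairs and higher in pair 4, where the siG9a library held the highest value of all 8. The blocked fit put the log2 change at 0.05 ± 0.28 (SE), 95% interval −0.53 to 0.63, with limma adjusted p 0.933 (0.812 to 0.995 over all settings). The value was 0.08 without both replicate 3 libraries, and its sign turned to −0.16 without pair 4 and −0.19 without siG9a replicate 4 alone. ARHGAP9 overlaps the 3′ end of GLI1 on the opposite strand and had 3 to 24 reads per library, so GLI1 values are uncertain where strand was not used.

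A ratio within 1 library does not depend on the scaling. The reads of HHIP over those of GLI1 were 3.13, 1.09, 0.833 and 0.964 for control libraries 1 to 4, against 0.722, 0.185, 0.211 and 0.214 under siG9a. HHIP over PTCH1 was 9.4, 2.64, 2.5 and 2.7 in control and 0.565, 0.417, 0.286 and 1 in siG9a. In both ratios the siG9a libraries lay below all control libraries. The ratios were chosen after the values were seen and are given without a test.

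**Figure D2:**
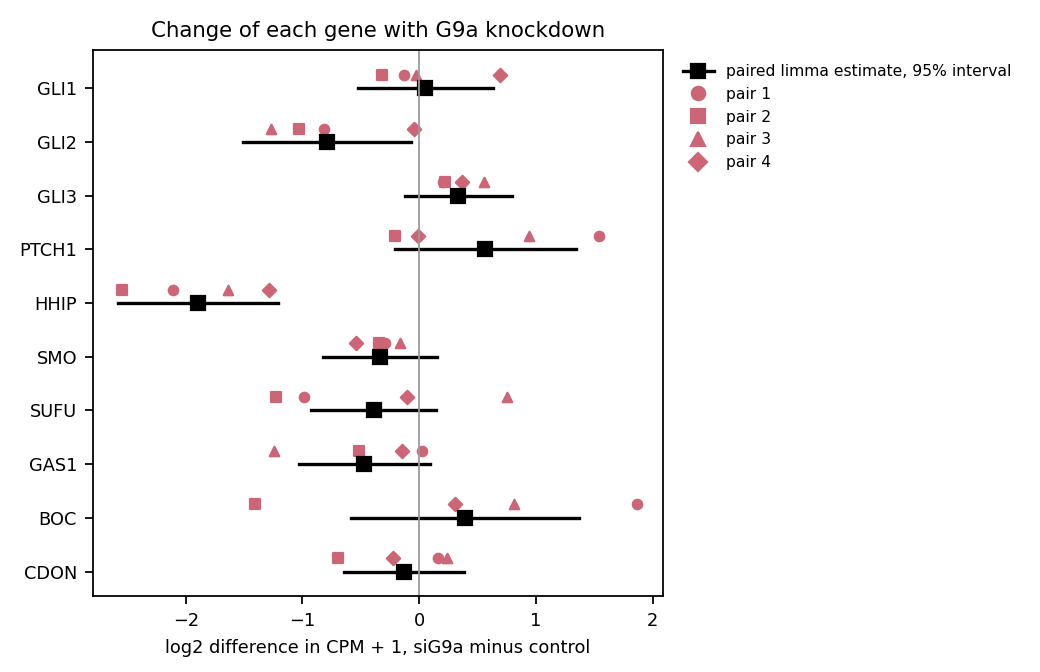
Change of each gene, siG9a minus control, in log2 of CPM + 1 (horizontal axis). Black squares and lines are the limma estimate with the replicate block and its 95% interval, and red symbols are the 4 pairs. HHIP lies at −1.89 with all 4 pairs below 0, the interval of GLI2 ends at −0.07, and those of the other 8 genes include 0.

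GLI2 (chromosome 2), the main activator at the start of the response, had lower values in siG9a in 4 of 4 pairs but did not pass the test. It was measured at 11.7, 9.72, 5.53 and 12.5 CPM in control replicates 1 to 4 and at 6.19, 4.24, 1.71 and 12.04 CPM in siG9a. The groups overlapped, with siG9a replicates 1 and 4 above control replicate 3, and siG9a replicate 3 rested on 3 reads. In the blocked fit limma gave a log2 change of −0.79 ± 0.35 (SE), a 95% interval of −1.51 to −0.07, an unadjusted p of 0.0332 and an adjusted p of 0.153 (0.122 to 0.769 over all settings). Without both replicate 3 libraries the change was −0.63 (limma adjusted p 0.348, blocked), and without siG9a replicate 3 alone it was −0.41.

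GLI3 (chromosome 7), whose protein serves mainly as a repressor, was the member with higher values in siG9a in 4 of 4 pairs. These are RNA values, and its protein was not measured here. Control replicates 1 to 4 had 26.7, 27.9, 16.0 and 20.2 CPM and siG9a replicates had 30.9, 32.7, 23.98 and 26.4 CPM, at 116% to 150.0% of the paired control. Control replicates 1 and 2 lay within the siG9a range. For the blocked fit the log2 change was 0.34 ± 0.22 (SE), 95% interval −0.12 to 0.79, limma adjusted p 0.368 (0.311 to 0.823 over all settings). The change was 0.19 without control replicate 3. All 4 pairs went 1 way in 4 of 10 members (GLI2, SMO and HHIP lower, GLI3 higher) and in 30.2% of the genes tested. The reads of GLI2 over those of GLI3 were 0.436, 0.348, 0.346 and 0.615 in control and 0.2, 0.13, 0.0714 and 0.457 in siG9a, lower in 4 of 4 pairs, with overlapping groups. This ratio too was chosen after the values were seen.

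SMO (chromosome 7), the signal transducer of the pathway, had small differences of 1 sign. It was measured at 28.1, 24.9, 12.3 and 33.8 CPM in control replicates 1 to 4 and at 22.7, 19.4, 10.9 and 22.9 CPM in siG9a. Each siG9a library stood at 68.0% to 88.2% of its paired control, and the groups overlapped. Limma with the block gave a log2 change of −0.34 ± 0.24 (SE), a 95% interval of −0.82 to 0.15 and an adjusted p of 0.404 (0.329 to 0.945 over all settings). Single libraries moved it: the change was −0.10 without siG9a replicate 3, −0.16 without control replicate 4 and −0.63 without control replicate 3, but −0.39 without both replicate 3 libraries.

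SUFU (chromosome 10), which holds GLI proteins in the cytoplasm, differed between pairs in direction. Control replicates 1 to 4 had 37.7, 39.5, 23.4 and 35.8 CPM and siG9a replicates had 18.6, 16.3, 39.97 and 33.3 CPM. Pairs 1 and 2 were at 49.3% and 41.4% of control, pair 4 at 92.8% and pair 3 at 171%. The blocked log2 change was −0.39 ± 0.26 (SE; limma adjusted p 0.376, 0.0850 to 0.893 over all settings). It was −0.77 without both replicate 3 libraries, where limma gave the lowest of these, −0.11 without pair 2 and −0.19 without pair 1, and it was called in none of them. Of single libraries, leaving out siG9a replicate 1, 2 or 3 gave −0.25, −0.19 and −0.60.

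The 3 co-receptors gave no call. GAS1 (chromosome 9), a lipid-anchored protein, was measured at 21.2, 15.2, 20.3 and 22.3 CPM in control replicates 1 to 4 and at 21.7, 10.3, 7.99 and 20.1 CPM in siG9a. Its blocked log2 change was −0.47 ± 0.27 (SE; limma adjusted p 0.293, 0.245 to 0.840 over all settings), and −0.21 without both replicate 3 libraries or −0.23 without siG9a replicate 3 alone. It was lower in 3 of 4 pairs, and siG9a replicates 2 and 3 were the lowest of the 8 libraries. CDON (chromosome 11), an immunoglobulin superfamily protein also known for promoting muscle differentiation, was measured at 30.9, 31.0, 6.15 and 29.6 CPM in control and at 34.6, 18.8, 7.42 and 25.2 CPM in siG9a. The blocked log2 change of CDON was −0.13 ± 0.25 (SE), 95% interval −0.65 to 0.38, limma adjusted p 0.799 (0.427 to 0.994 over all settings). The change was −0.25 without both replicate 3 libraries, −0.67 without control replicate 3 alone and 0.28 without siG9a replicate 3 alone. CDON was higher in 2 pairs and lower in 2. VSIG10L2 overlaps the 3′ end of CDON on the opposite strand and was not analysed here, so CDON values are uncertain where strand was not used. BOC (chromosome 3), a relative of CDON, rested on 1 to 10 reads per library, at 0.69, 4.86, 1.84 and 2.60 CPM in control and 5.16, 1.21, 4.00 and 3.44 CPM in siG9a. For BOC the blocked log2 change was 0.39 ± 0.47 (SE; limma adjusted p 0.662, 0.298 to 0.973 over the settings that gave one). Its interval of −0.58 to 1.37 was the widest of the 10. The change was −0.10 without pair 1, 0.99 without pair 2 and 0.25 without both replicate 3 libraries. CFAP44 overlaps the 3′ end of BOC on the opposite strand, with 5 to 22 reads per library.

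Replicate 3 was the lowest of its 4 libraries in both groups for 5 of 10 members (GLI2, GLI3, SMO, HHIP and CDON) and for 19.8% of the genes tested. It was the highest in both groups for 0 members and for 20.1% of the genes. CDON stood out, at 6.15 CPM in control replicate 3 against 29.6 to 31.0 CPM in the other controls, and at 7.42 CPM in siG9a replicate 3 against 18.8 to 34.6 CPM. In log2 of CPM + 1, replicate 3 lay below the mean of the other libraries by −2.14 in control and −1.69 in siG9a. SMO lay at −1.17 and −0.94 and GLI2 at −0.91 and −1.65 on the same scale. The muscle factor MYOD1 lay at −3.14 and −2.55 in the same libraries. These values describe libraries whose number was singled out after they were seen, so no test is given, and the part of other cells in them was not tested.

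**Figure D3:**
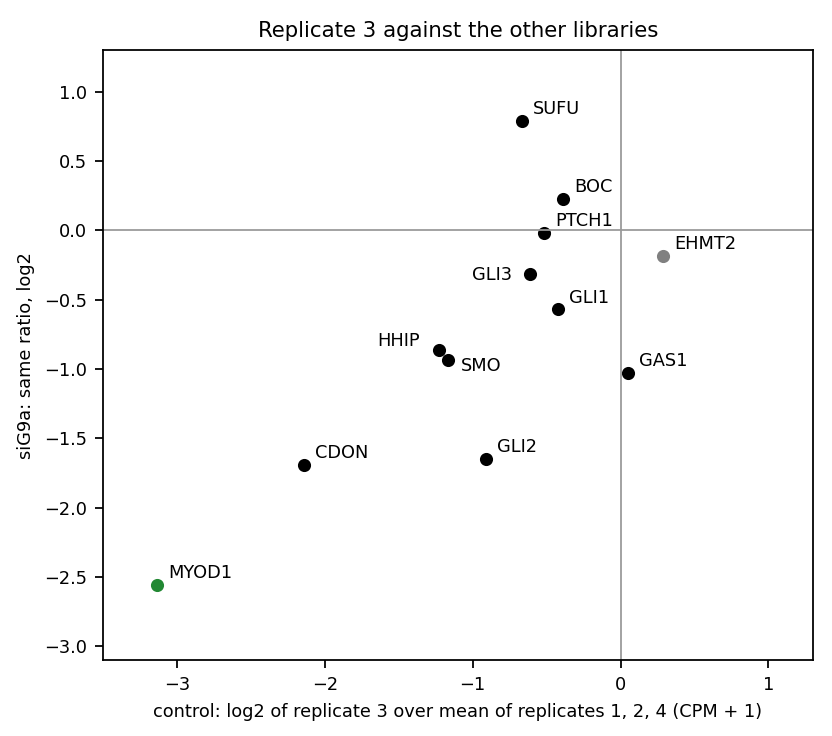
Position of replicate 3 against the mean of replicates 1, 2 and 4 in log2 of CPM + 1, in control (horizontal axis) and in siG9a (vertical axis). Black points are the 10 Hedgehog genes, the green point is MYOD1 and the grey point EHMT2. CDON lies farthest from 0 among the Hedgehog genes, at −2.14 and −1.69, nearest to MYOD1.

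The rest of the pathway was described with lists of genes. Hedgehog ligands were nearly absent, with 1 read of SHH, 4 of IHH and 8 of DHH over all 8 libraries. Of 6 genes for ligands and their lipidation, release or transport, 3 passed the filter on low values and 0 were called with the block. DISP1, which releases the lipidated ligand, was measured at 2.74 to 5.71 CPM in control and 6.19 to 8.47 CPM in siG9a, without overlap and higher in 4 of 4 pairs, from 4 to 14 reads per library. Limma gave an adjusted p of 0.226 in the blocked fit. Of 6 other genes at the receptor level 5 were tested and 0 called with the block. In that fit 11.4% of all genes were called, so 0 of 3 and 0 of 5 do not set these lists apart. The ligands and DISP1 were singled out after their values had been seen.

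Among 20 genes for kinases, ubiquitin ligase parts and scaffolds that act on GLI proteins, 3 rose, 3 fell and 14 were not called, that is 30% against 11.4% of all genes. All 20 averaged 5 CPM or more, and with that filter the blocked fit called 6 of the 20 and 1653 of 10862 genes. The rises were ULK3, a kinase that acts on GLI proteins, STK36, the relative of Drosophila fused, and DYRK2, a kinase that targets GLI2 for degradation. The falls were SPOP, which marks GLI proteins for ubiquitination, CSNK1A1, which phosphorylates them, and GNAS, which encodes the Gs alpha subunit that raises protein kinase A activity. ULK3 rose from 51.6 ± 20.1 to 96.5 ± 27.7 CPM (SD, n = 4 in both), by 0.92 ± 0.17 in log2 (SE; limma adjusted p 0.000931 blocked, 0.228 by group alone). SPOP fell from 256 ± 62.1 to 169 ± 61.2 CPM (SD, n = 4 in both), by −0.63 ± 0.14 in log2 (SE; limma adjusted p 0.00482 blocked, 0.372 by group alone). CSNK1A1, at 223 to 415 CPM in control and 167 to 194 CPM in siG9a, was the called gene of this list whose groups did not overlap, but AC021078.1 overlaps it on the same strand, so its reads may have been split. The median log2 change of the 20 genes was −0.08. Leaving out 1 pair left 2 to 5 of these calls: ULK3 was called each time, GNAS and SPOP lost the call without pair 2, CSNK1A1 without pair 4, STK36 without pair 2 or 3, and DYRK2 without pair 1, 2 or 3.

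Of 22 genes of the primary cilium 21 were tested, with 2 called higher, 0 lower and a median log2 change of 0.11. The share called was 9.52%, against 11.4% of all genes. TULP3, which carries receptors such as GPR161 into the cilium, was measured at 23.99, 25.5, 23.4 and 49.3 CPM in control replicates 1 to 4, and the siG9a libraries had 79.4, 67.2, 57.7 and 69.97 CPM. All siG9a libraries lay above all control libraries. It rose by 1.20 ± 0.20 in log2 (SE; limma adjusted p 0.000346 blocked, 0.117 by group alone), and the call held without each pair. RHNO1 overlaps TULP3 on the same strand at a mean of 52.5 CPM, so TULP3 values are uncertain where such reads were split. MKS1, a protein of the ciliary transition zone, was at 14.8 to 20.8 CPM in control and 24.6 to 51.04 CPM in siG9a (limma adjusted p 0.0219, blocked), and lost the call without any 1 of the 4 pairs.

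Of 26 genes described as GLI targets, members aside, 20 were tested, with 1 called higher, 4 lower and 15 not called, that is 25% against 11.4% of all genes. With a filter at 5 CPM the blocked fit called 5 of 18 targets and 1653 of 10862 genes. The median log2 change of the 20 targets was −0.13. CCND2, which encodes cyclin D2, was measured at 664, 453, 239 and 546 CPM in control replicates 1 to 4 and at 169, 114, 129 and 153 CPM in siG9a, without overlap. The fall was −1.67 ± 0.16 in log2 (SE; limma adjusted p 3.13e-07 blocked, 0.0898 by group alone). CCND1, which encodes cyclin D1, was at 106 to 212 CPM in control and 19.6 to 166 CPM in siG9a, at 11.3% of control in pair 1 and 48.2% to 78.5% in the others (limma adjusted p 0.00449 blocked, and 0.0593 without pair 1). IGF2, a growth factor, was lower in 3 of 4 pairs, at 101% of control in pair 3, and lost the call without pair 1 or 2. RUNX2, a transcription factor of bone, had a log2 change of −1.19 from 3 to 33 reads per library and lost the call without pair 2, 3 or 4. CDK6, a partner of D-type cyclins, rose from 353 ± 207 to 621 ± 280.0 CPM (SD, n = 4 in both) and was higher in every pair (limma adjusted p 0.000940 blocked, 0.481 by group alone). CCND2 and CDK6 kept the call without each pair. LTO1 overlaps the 3′ end of CCND1, and STK36, CDK6, IGF2 and RUNX2 overlap antisense or opposite-strand genes with reads. INS-IGF2 also overlaps IGF2 on the same strand at a mean of 1.53 CPM, so reads of IGF2 may have been split. None of the 13 genes called in these lists was called by limma without the block, where the adjusted p-values ran from 0.0898 to 0.630, nor by the blocked fit without a mean-variance trend. Blocked edgeR called all 13, and blocked DESeq2 called 9, with MKS1 (adjusted p 0.0739), CCND1 (0.240), IGF2 (0.182) and RUNX2 (0.0729) not called. Without the block and without both replicate 3 libraries limma called 5 of them, ULK3 (adjusted p 0.0338), TULP3 (0.0346), CCND2 (0.000182), CCND1 (0.0478) and IGF2 (0.0430). Over all settings without the block the adjusted p of CCND2 ran from 2.15e-05 to 0.359, that of TULP3 from 0.00902 to 0.401 and that of ULK3 from 0.0338 to 0.538.

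**Figure D4:**
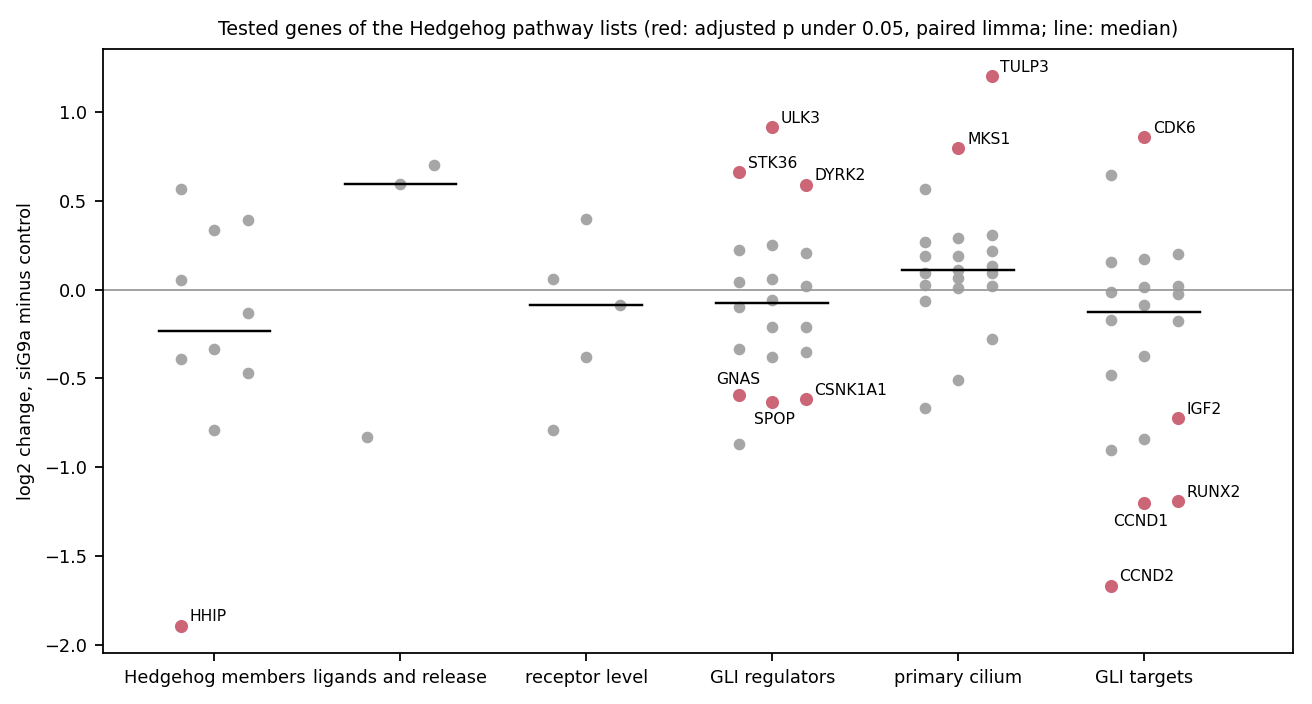
Log2 change, siG9a minus control (vertical axis, log2 of CPM + 1), of every tested gene of the 10 Hedgehog members and of the lists for ligands, receptor level, GLI regulators, primary cilium and GLI targets. Red points have a limma adjusted p under 0.05 with the replicate block and lines are medians. HHIP at −1.89 and CCND2 at −1.67 are the lowest points.

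The profiles most like that of HHIP were sought among 8891 genes averaging 10 CPM or more. Likeness was the mean absolute difference, over the 8 libraries, of log2(CPM + 1) after subtracting each gene's own mean, and its median over all genes compared was 1.02. The nearest were TFF3 (0.204), a secreted trefoil peptide, PTPRD (0.271), a receptor tyrosine phosphatase, CTD-2545M3.8 (0.285), CCND2 (0.309) and LAMA1 (0.317), a laminin chain. TFF3 was measured at 40.4, 26.7, 9.84 and 17.1 CPM in control replicates 1 to 4 and at 5.67, 5.45, 2.28 and 5.16 CPM in siG9a. Like HHIP, it was highest in control replicate 1 and lowest in siG9a replicate 3. PTPRD went from a mean of 87.9 to 27.6 CPM and LAMA1 from 27.6 to 6.58 CPM. EMC10 overlaps the 3′ end of CTD-2545M3.8 on the opposite strand at 225 CPM, so that gene is uncertain. As these genes were chosen for their likeness, their changes are given as a description.

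**Figure D5:**
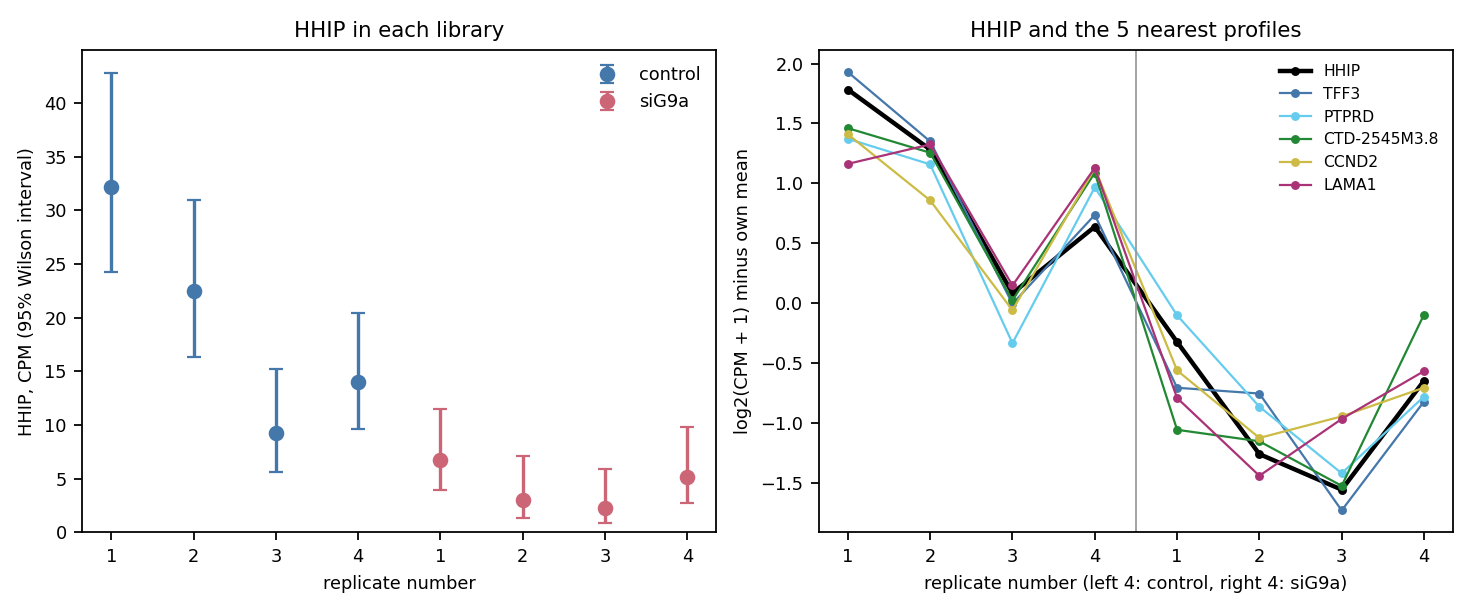
Left, HHIP in CPM in each library with its 95% Wilson interval, replicates 1 to 4 of control (blue) and siG9a (red). Right, log2(CPM + 1) minus its own mean over the 8 libraries for HHIP (black) and the 5 genes with the nearest profiles, control on the left of the vertical line. The 4 siG9a values of HHIP, 2.28 to 6.71 CPM, lie below the 4 control values, 9.22 to 32.2 CPM.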

How the data were processed

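Per the labels' protocols, total RNA was taken with TRIzol and QuantSeq 3′ mRNA libraries were sequenced as single-end reads of 75 bp. The submitters' processing notes list FastQC 0.11.8, Trim Galore, STAR 2.5.0a, HTSeq 0.8.0, edgeR 3.28 and the builds GRCh38 and hg19, without roles. The authors deposited CPM to 2 decimals, that is reads scaled to each library's total assigned to genes. Whole reads were recovered from 100% of non-zero values (tolerance 0.0051 CPM), and 3 reads were the floor. Because the build used is not given in the sources used here, gene coordinates are not printed, and overlaps come from GENCODE release 29.

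The main test was limma 3.58.1 (R 4.3.3) on log2(CPM + 1), eBayes with trend, group as the only term, over the 15092 genes averaging 1 CPM or more, two-sided with Benjamini-Hochberg adjustment at 0.05. A fold change on this scale understates the change of low genes. The blocked fit added the replicate number. Pairing rests on the numbers in the titles, which the labels do not explain. Same-numbered libraries deviated together from their group means, with correlations across genes of 0.500, 0.104, 0.673 and 0.130 for numbers 1 to 4. Control 2 correlated more with siG9a 4 (0.144) than with siG9a 2, so the numbers set the pairs less clearly for 2 and 4 than for 1 and 3. Library pairs within a group differed by 4.97 to 24.2 in chi-square per degree of freedom, more than counting error alone gives. The largest values were between replicates 1 and 3, at 20.4 in control and 24.2 in siG9a. No library was therefore taken as a resequencing of another, and all 8 were kept as separate libraries. Recovered reads were also tested with edgeR 4.0.16 and DESeq2 1.42.0. The scripts were tested on simulated data.

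Members and lists were chosen with earlier results of these data known. The text names the 10 members, EHMT2, up to 6 called genes of each pathway list by adjusted p with the block, and the 5 genes nearest in profile to the member with the largest change. Alternatives were other pseudocounts, filters, scalings and variance models, the block, the other tools and leaving out libraries. Combining the block with other pseudocounts, filters, scalings and variance models was chosen after seeing the data.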

Additional observations from a re-analysis of the deposited data

Results flagged for a closer look

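CDON in control replicate 3 was the library farthest from its group among the members, at 6.15 CPM against 29.6 to 31.0 CPM in the other 3. The gap to the nearest library was 0.944 of the whole range, above Dixon's 95% critical value for 4 libraries. It was the only such case among 22 groups of 4 libraries (10 members and EHMT2), where chance gives about 1 in 20. CDON in siG9a replicate 3, at 7.42 CPM, was also the lowest of its group but did not pass that limit.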

How the results depend on the processing

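Depth and the spread between replicates both limit these results: members rested on 1 to 70 reads per library, and replicates differed by 4.97 to 24.2 in chi-square per degree of freedom. Without the replicate block limma called 0 genes in all (1880 at an unadjusted p under 0.05), and edgeR called 0 (1847 unadjusted). The block gave 1717 calls with limma, 1711 with edgeR and 969 with DESeq2. Without the block DESeq2 gave 291, no filter on low values gave 18, and leaving out both replicate 3 libraries gave 415. Leaving out single libraries gave 0 to 300, and leaving out pair 1, 2, 3 or 4 with the block gave 972, 653, 1180 and 1392. Settings combined with the block after the data were seen gave 1363 (pseudocount 0.1), 1710 (pseudocount 5), 1653 (filter at 5 CPM), 1694 (scaling by median ratio), 1688 (quantile normalization) and 0 (no trend, 3274 unadjusted).

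The members called were 1, always HHIP, with the block in each of these fits except the one without trend, where it was 0. Without the block it was 1 with DESeq2, without control replicate 3 and without both replicate 3 libraries. Among GLI regulators the block gave 6 calls by each tool and in the combined settings with a trend, 2 to 5 without a pair (4 without pair 3), and 1 without both replicate 3 libraries or control replicate 3. Cilium genes gave 2 (1 with DESeq2 with or without the block), 1 without any pair and 1 without both replicate 3 libraries. Targets gave 5 in the block and its combined settings with a trend, 6 with edgeR and the block, 2 with DESeq2 and the block, 3 to 5 without a pair (4 without pair 4), 1 with DESeq2, 1 with no filter, 1 without control replicate 3 and 3 without both replicate 3 libraries. Ligand and receptor-level lists gave 0 throughout.

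HHIP kept its sign in 31 alternatives, from −2.20 to −1.33, as did EHMT2, GLI2, GLI3, PTCH1, SMO, SUFU and GAS1. Signs turned only when libraries were left out: GLI1 lay between −0.19 and 0.24 without 1 library and at −0.16 without pair 4 in the blocked fit, CDON between −0.67 and 0.28 and at 0.058 without pair 2, and BOC at −0.10 without pair 1. The cause was not tested. No scaling moved the median of all genes by more than 0.1. The median was 0.027 with quantile normalization and 0.006 with median-ratio scaling.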
